A study of Homo sapiens with 4 samples.

Results

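The EZH2 peaks around 10 homeobox genes that pattern the embryonic brain were examined, namely EN1, EN2, OTX1, OTX2, EMX1, EMX2, GBX2, GSX1, GSX2 and VAX1. A peak belonged to a gene when it had at least 1 base within 20 kb of the gene start, a window of 40 kb, with the starts given in hg19 to the nearest 1 kb. This gave 31 of 66093 deposited peaks, 20 of 31077 in the H3.1-WT list and 11 of 35016 in the H3.1-K27M list. The peaks came from CUT&RUN, in which an antibody guides a nuclease to a chromatin protein and the freed DNA is sequenced, in HEK293, an established human embryonic kidney line. All cells were transduced with lentivirus, selected with G418 and induced with doxycycline, and the groups differed in the induced histone, H3.1-WT or H3.1-K27M, in which methionine replaces lysine 27. Each genotype had 1 EZH2 library and 1 control library made with an anti-rabbit HRP secondary antibody, 4 libraries in all. With 1 library per group, genotype and library cannot be told apart, no difference between genotypes was tested, and the depth of the libraries is unknown, since read counts are not part of the lists.

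EZH2 is the enzyme of the Polycomb repressive complex PRC2, which methylates lysine 27 of histone H3 and holds developmental regulators silent in cells of other lineages. Its sites often lie at CpG-rich gene starts. The K27M substitution is known from diffuse midline gliomas and interferes with PRC2. Among the genes studied here, OTX2 acts in the forebrain and midbrain and GBX2 in the anterior hindbrain. The border between them places the organiser of this region, and EN1 and EN2 pattern midbrain and cerebellum. OTX1 is a paralogue of OTX2 with a part in cortex development. EMX1 and EMX2 act in the dorsal telencephalon, the future cortex, and EMX2 also in the urogenital system. GSX1 and GSX2 specify progenitors of the ventral telencephalon, and VAX1 acts in the ventral forebrain and optic nerve.

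The sequences before 4 of the starts are shown because these genes span the range of peak patterns described next: GSX1 had the widest and strongest peak of the 10 genes in both genotypes, EN2 the most peaks, GBX2 a weak peak at its start in H3.1-WT only, and OTX2 no peak at its start. Each is the 250 bases before the start in RefSeq, build GRCh38.p14, read 5′ to 3′ along the gene, and capitals mark CpG dinucleotides.
GSX1, chr13:27792233-27792482, + strand: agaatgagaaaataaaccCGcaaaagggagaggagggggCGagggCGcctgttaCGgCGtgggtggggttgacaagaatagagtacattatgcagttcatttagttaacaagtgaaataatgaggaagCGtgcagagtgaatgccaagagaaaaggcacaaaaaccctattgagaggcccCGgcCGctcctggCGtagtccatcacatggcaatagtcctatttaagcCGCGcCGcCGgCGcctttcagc
EN2, chr7:155457879-155458128, + strand: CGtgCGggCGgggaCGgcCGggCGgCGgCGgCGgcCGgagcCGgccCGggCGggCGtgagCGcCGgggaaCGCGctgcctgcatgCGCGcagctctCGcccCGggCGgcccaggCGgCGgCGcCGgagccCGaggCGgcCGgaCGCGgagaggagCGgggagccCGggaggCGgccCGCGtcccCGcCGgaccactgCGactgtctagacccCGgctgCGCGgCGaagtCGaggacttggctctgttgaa
GBX2, chr2:236168387-236168636, - strand: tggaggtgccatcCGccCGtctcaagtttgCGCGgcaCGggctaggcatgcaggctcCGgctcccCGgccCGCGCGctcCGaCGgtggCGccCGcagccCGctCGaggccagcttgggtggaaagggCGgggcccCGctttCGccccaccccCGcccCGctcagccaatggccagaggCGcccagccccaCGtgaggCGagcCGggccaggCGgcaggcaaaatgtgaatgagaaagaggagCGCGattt
OTX2, chr14:56810480-56810729, - strand: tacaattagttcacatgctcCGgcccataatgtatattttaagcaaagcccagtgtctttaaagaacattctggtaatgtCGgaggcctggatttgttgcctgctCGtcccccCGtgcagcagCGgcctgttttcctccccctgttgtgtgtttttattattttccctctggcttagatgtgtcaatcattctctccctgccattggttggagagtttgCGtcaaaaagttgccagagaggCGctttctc

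The 4 stretches held 14 CpG dinucleotides in GSX1, 45 in EN2, 28 in GBX2 and 7 in OTX2. RefSeq promoter entries were found for 8 of the 10 genes, all but EN1 and EMX1, with 9 entries because OTX2 has 2. A promoter was counted as CpG-rich when it had at least 50% GC and at least 0.6 times the CpG number that its C and G content would give. This held for 7 of the 8 genes, and 45.0% of all 35116 RefSeq promoters met it. The exception was OTX2, with ratios of 0.505 and 0.294 at its 2 entries and GC contents of 47.2% and 50%. Over the 9 entries the median was 22 CpG dinucleotides, against 11 over all entries. The highest was EN2, at percentile 99.5 of all entries, and OTX1 followed with 33 at percentile 92.5. GSX1, which had the strongest peak, lay near the middle at percentile 56.1. The promoter table and the peaks are on different builds, so promoters were not placed inside peaks base by base.

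**Figure D1:**
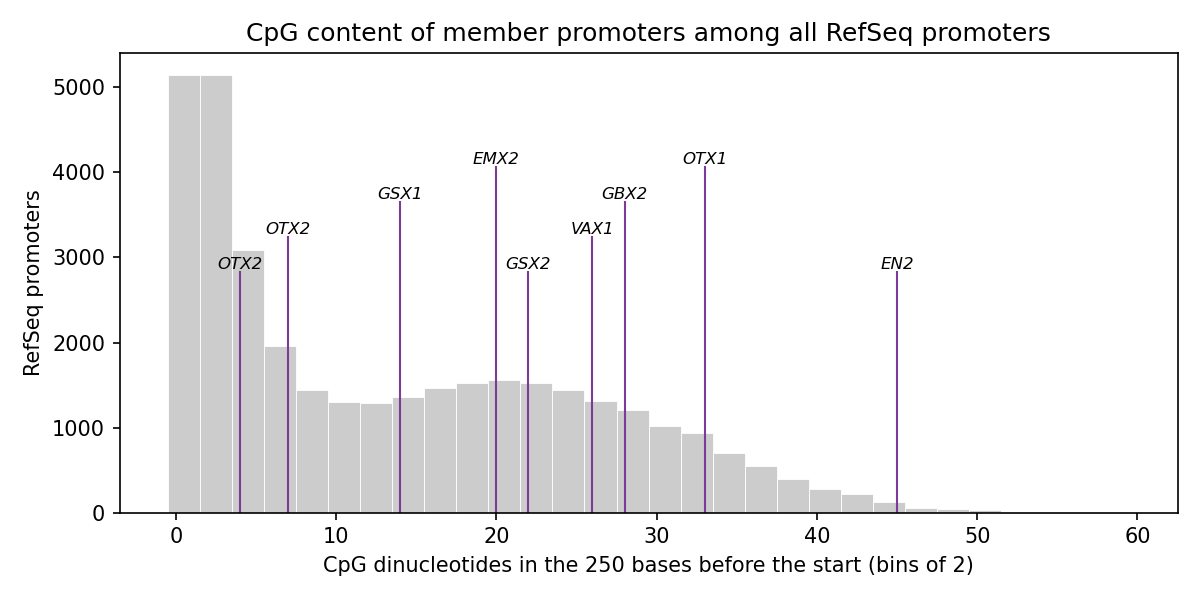
CpG dinucleotides in the 250 bases before the start (x axis, bins of 2) against the number of RefSeq promoters (y axis, grey bars); purple lines mark the 9 entries of 8 genes. OTX2 lies lowest with 4 and 7 CpG dinucleotides, and EN2 highest with 45.

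The first comparison asked which of these genes carried EZH2 peaks in each genotype. In H3.1-WT all 10 genes had a peak within 20 kb, and in H3.1-K27M 7 had one; OTX2, GBX2 and VAX1 had none. Over all non-overlapping 40 kb windows of the autosomes, which include gaps of the assembly and are not gene starts, 29.0% held an H3.1-WT peak and 23.0% an H3.1-K27M peak. All 10 genes had an H3.1-WT peak with a −log10 q of at least 2, where q is the adjusted p-value given by the authors' peak caller. Of autosomal windows with such a peak, 60.5% also held an H3.1-K27M peak, so 7 of 10 was near the background.

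Strong peaks, defined by a −log10 q of 5 or more, lay near EN2, OTX2, EMX1 and GSX1 in H3.1-WT cells and near GSX1 in H3.1-K27M cells. Autosomal windows held a strong peak in 2.91% of cases (H3.1-WT) and 0.925% of cases (H3.1-K27M). The EMX1 peak in H3.1-K27M fell just short, at 4.998. Without GSX1, 0 of the other 9 genes had a strong H3.1-K27M peak.

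Peaks gathered at the starts. Within 1 kb of the start, a distance chosen after the positions were seen and equal to the precision of the starts, 9 genes had an H3.1-WT peak and 6 an H3.1-K27M peak. Of autosomal windows of 2 kb, 3.13% held an H3.1-WT peak and 3.1% an H3.1-K27M peak. OTX2 was the exception in H3.1-WT. GSX2, GBX2 and VAX1 had a peak at the start in H3.1-WT only, and for EN1, EN2, OTX1, EMX1, EMX2 and GSX1 the lists shared it.

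**Figure D2:**
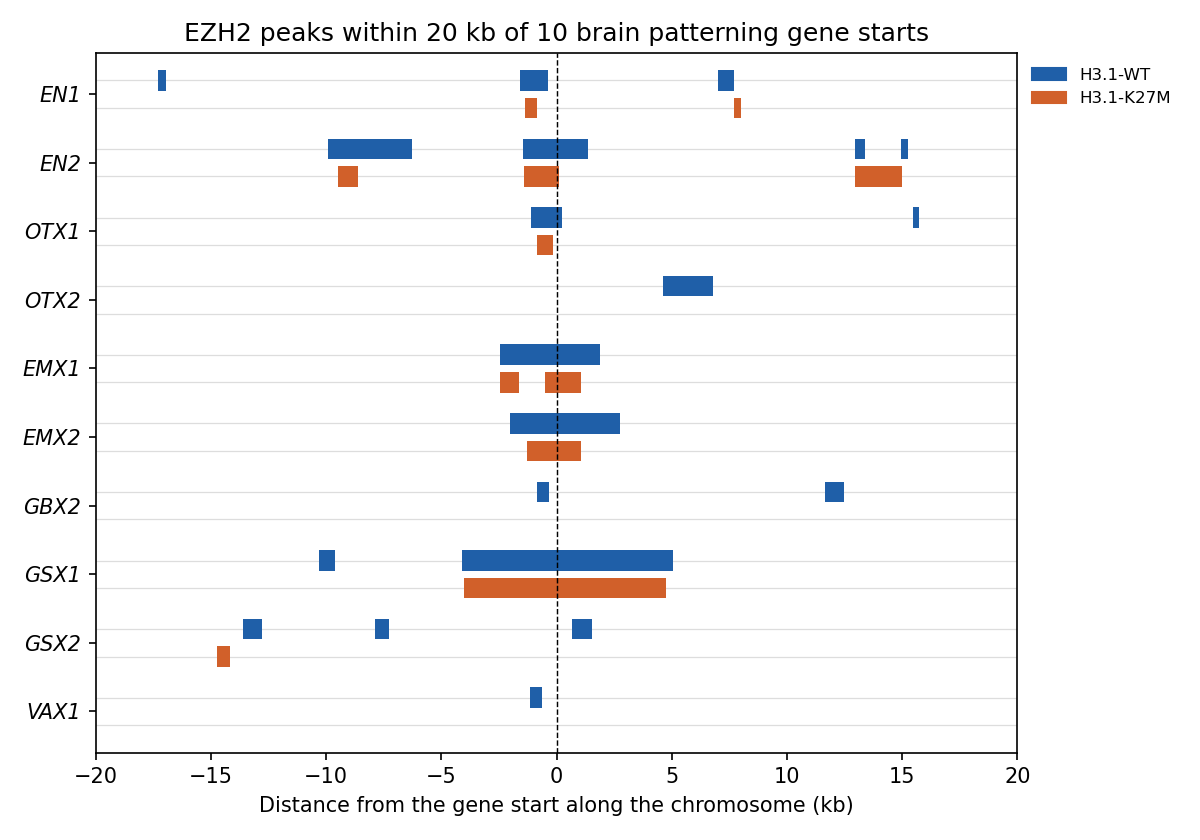
EZH2 peaks (boxes drawn to scale) within 20 kb of each gene start, by distance along the chromosome in kb (x axis), for H3.1-WT (blue, upper row of each gene) and H3.1-K27M (orange, lower row). Boxes gather at the dashed line that marks the start; the lower rows of OTX2, GBX2 and VAX1 are empty.

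The peaks near these starts covered 36399 H3.1-WT bases and 20082 H3.1-K27M bases, a ratio of 0.552. The number of peaks gave a ratio of 0.55, with an exact 95% interval of 0.238 to 1.2 that covers counting error only and includes 1. Over all autosomal peaks the ratios were 1.04 for covered bases and 0.976 for peak number. Covered length was lower in H3.1-K27M at each of the 10 genes. The same was true of 79.0% of autosomal 40 kb windows with an H3.1-WT peak of a −log10 q of at least 2, so most windows chosen for an H3.1-WT peak lean this way.

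Coverage varied widely among the genes. In H3.1-WT it ran from 539 bases at VAX1 to 9852 at GSX1, with a median of 2260, against a mean of 460 over autosomal windows. In H3.1-K27M it ran from 0 to 8798, also at GSX1, with a median of 778 and a mean of 480 over windows. A median over genes and a mean over windows are unlike measures, and most windows held no peak. GSX1, EN2, EMX2 and EMX1 were the 4 most covered genes in both lists, in this order. Their H3.1-WT values were 9852, 7234, 4751 and 4330 bases, and their H3.1-K27M values 8798, 4467, 2342 and 2335 bases.

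**Figure D3:**
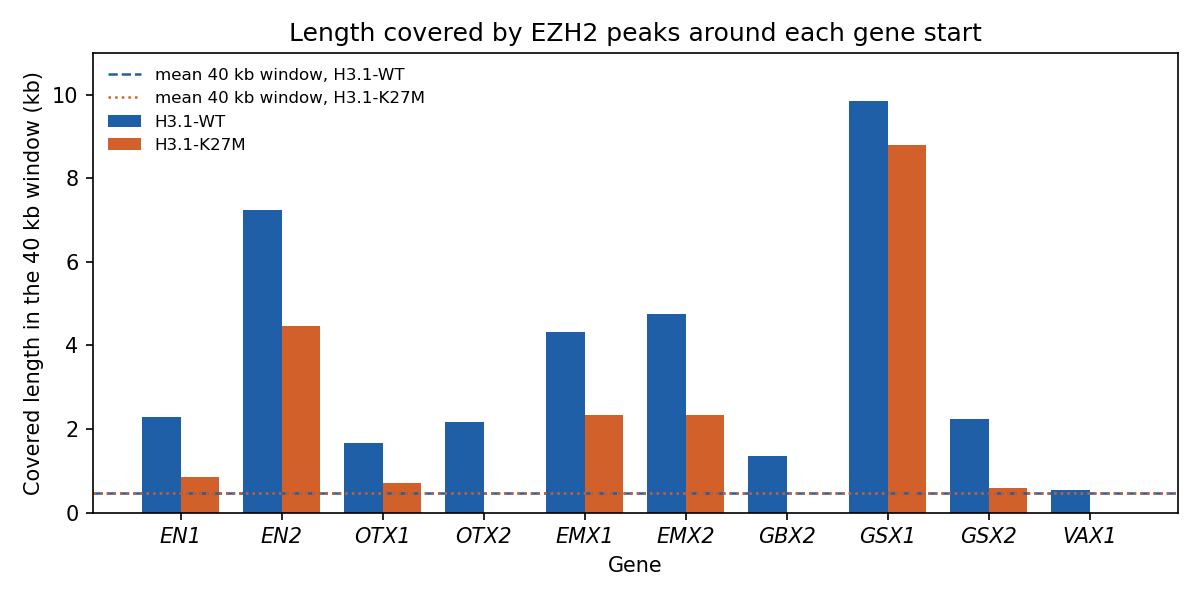
Length covered by EZH2 peaks in the 40 kb window around each start, in kb (bars), with the mean over autosomal 40 kb windows of each list (lines, 460 and 480 bases). GSX1 and EN2 are highest in both genotypes, and every H3.1-K27M bar is lower than its H3.1-WT neighbour.

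The next comparison asked whether the genotypes shared the same peaks. Of the 20 H3.1-WT peaks near the starts, 10 shared bases with the H3.1-K27M list (50%; Wilson 95% bounds, 29.9% and 70.1%), as did 34.7% of all autosomal peaks of the H3.1-WT list. Of the 11 H3.1-K27M peaks, 10 shared bases with the H3.1-WT list (90.9%; bounds, 62.3% and 98.4%), as did 35.3% of all autosomal peaks of the H3.1-K27M list. The exception lay beside GSX2. These shares depend on the overlap of 1 base that was asked for. When the shared bases had to make up at least 50% of both peaks, they fell to 3 of 20 (15%) in H3.1-WT, against 14.2% of all autosomal peaks, and to 3 of 11 (27.3%) in H3.1-K27M, against 14.6%. Among strong H3.1-WT peaks, 4 of 5 were shared by at least 1 base, the exception being OTX2, and so were 83.5% of all strong autosomal ones. The Wilson bounds reflect nothing but counting error, with each peak taken as independent. All 10 windows held an H3.1-WT peak, which by itself leaves more for an H3.1-K27M peak there to overlap. The autosomal H3.1-K27M peaks lie anywhere, so 35.3% and 14.6% are not backgrounds at like H3.1-WT coverage.

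Where peaks overlapped, the H3.1-K27M peak was the narrower in 9 of 11 pairs, against 57.1% of all overlapping autosomal pairs. The exceptions were the pairs that an H3.1-K27M peak of 2060 bases formed with H3.1-WT peaks of 453 and 328 bases at EN2. The 11 pairs shared 17641 bases, 87.8% of the H3.1-K27M peak bases near the starts and 48.5% of the H3.1-WT peak bases. The GSX1 pair alone gave 8798 of these bases. Over all autosomal peaks the shares were 31.7% and 33.2%. Those peaks lie anywhere, while each window here held an H3.1-WT peak, so these 2 shares are not like backgrounds either. The authors' fold enrichment, a ratio of EZH2 signal over the caller's background, was the lower number in H3.1-K27M in 10 of 11 pairs, against 60.1% of all overlapping autosomal pairs. The sources used here do not give the scaling of the separately called lists, so these numbers are set side by side without reading a change in EZH2 occupancy from them. The peaks near the starts had a median −log10 q of 2.62 (H3.1-WT) and 1.72 (H3.1-K27M), against 1.82 and 1.58 over autosomal peaks. The autosomal pairs were not matched for H3.1-WT peak strength, so 57.1% and 60.1% are not backgrounds at like strength. The 11 pairs are also not independent, since the EMX1 peak of H3.1-WT and an EN2 peak of H3.1-K27M recur in them.

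**Figure D4:**
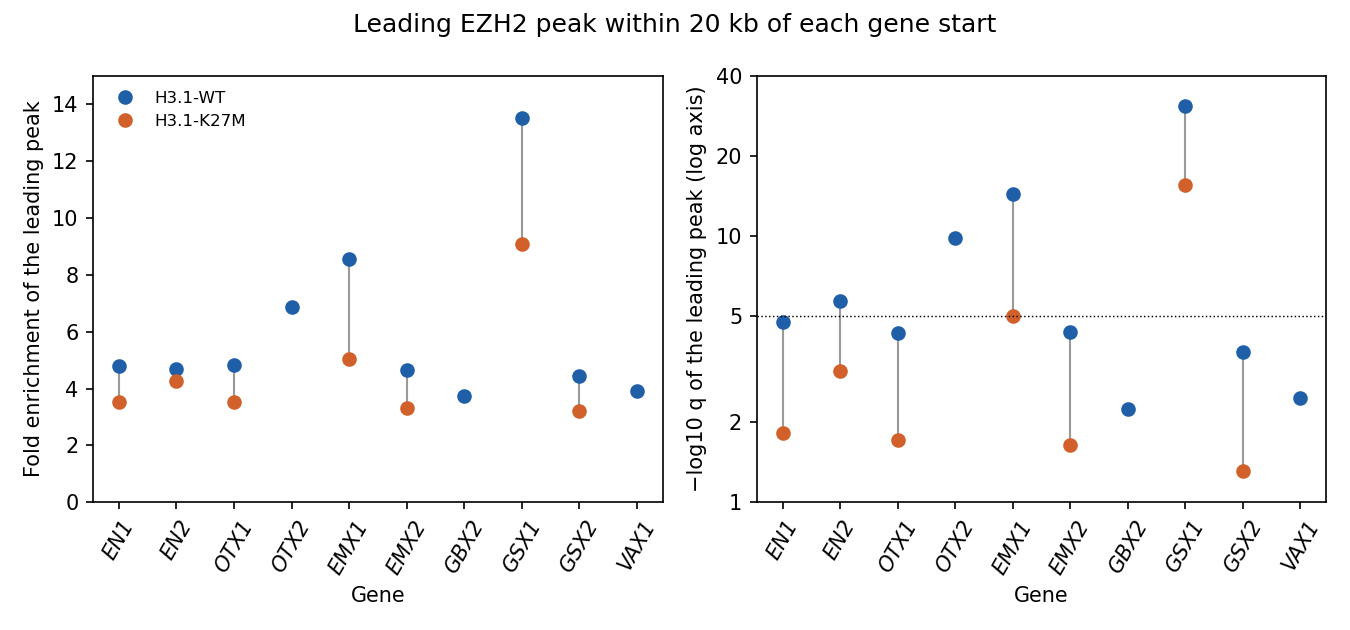
Fold enrichment (left, linear axis) and −log10 q (right, log axis, dotted line at 5) of the peak with the highest −log10 p near each start, for H3.1-WT (blue) and H3.1-K27M (orange); grey lines join the genotypes and are no error bars. GSX1 is highest in both genotypes, and OTX2, GBX2 and VAX1 have a blue point only.

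GSX1 and GSX2, paralogues of the ventral telencephalon, differed widely in coverage and strength. GSX1 carried a domain across its start in both genotypes. In H3.1-WT it spanned 9158 bases (hg19 chr13:28362912-28372069) with a fold enrichment of 13.5 and a −log10 q of 30.9, and in H3.1-K27M 8798 bases (chr13:28362967-28371764) with 9.09 and 15.6. By −log10 p these peaks lay at percentiles 99.8 and 99.9 of their own lists. All 8798 bases of the H3.1-K27M peak lay inside the H3.1-WT peak. GSX2 had no peak of comparable strength. Its leading H3.1-WT peak (chr4:54966690-54967524) was 835 bases wide, about 1 kb past the start on the + strand, with a fold enrichment of 4.45 and a −log10 q of 3.68. The only H3.1-K27M peak near GSX2 (chr4:54951243-54951826) lay 14 kb before the start, with a −log10 q of 1.31, and 0.572 kb from the nearest H3.1-WT peak.

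EMX1 and EMX2, the cortical pair, had peaks of similar width in H3.1-WT and different strength. The EMX1 peak (chr2:73142546-73146875) spanned 4330 bases, with 8.57-fold enrichment and a −log10 q of 14.4. The EMX2 peak (chr10:119299994-119304744) was 4751 bases wide with 4.65 and 4.36. Both spanned the start. In H3.1-K27M the EMX1 peak appeared as 2 peaks of 813 and 1522 bases, of which the stronger (chr2:73144521-73146042) had a fold enrichment of 5.05 and lay at percentile 98.1 of its list by −log10 p. The EMX2 peak in H3.1-K27M (chr10:119300718-119303059) spanned 2342 bases and lay inside the H3.1-WT peak, with a fold enrichment of 3.3 and a −log10 q of 1.64, percentile 51.4 of its list.

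EN1 and EN2, the midbrain and hindbrain pair, both had peaks in both genotypes. EN2 had the most in each list, 4 and 3. In H3.1-WT a peak of 3627 bases lay before the gene (chr7:155241093-155244719, fold enrichment 4.67, −log10 q 5.7) and another of 2826 bases across the start (chr7:155249537-155252362, 5.13 and 5.22). In H3.1-K27M peaks lay inside both of these, 858 and 1549 bases wide, with −log10 q values of 3.07 and 3.11; the one at the start (chr7:155249568-155251116) was the leading peak, with a fold enrichment of 4.26. EN1 had its leading H3.1-WT peak at the start (chr2:119604423-119605634, 1212 bases, fold enrichment 4.8, −log10 q 4.76). The H3.1-K27M peak inside it (chr2:119604622-119605146) was 525 bases wide with 3.28 and 1.49. Another site 7 to 8 kb from the EN1 start, towards higher coordinates, was called in both lists, but its 2 peaks shared only 21 bases. It gave the leading H3.1-K27M peak of EN1 (chr2:119613690-119614009, 320 bases, fold enrichment 3.51, −log10 q 1.82).

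OTX1 and OTX2 differed in where the peak lay. OTX1 had an H3.1-WT peak at its start (chr2:63276880-63278243, 1364 bases, fold enrichment 4.83, −log10 q 4.31), and the H3.1-K27M peak inside it (chr2:63277148-63277858) was 711 bases wide with 3.53 and 1.72. At OTX2, on the - strand, the only peak lay 5 to 7 kb before the start (chr14:57281611-57283781). It spanned 2171 bases with a fold enrichment of 6.86 and a −log10 q of 9.84, at percentile 97.5 of the H3.1-WT list. The nearest H3.1-K27M peak was 676 kb away from it. OTX2 thus had the strongest H3.1-WT peak near these starts without a call in the other list.

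GBX2 and VAX1 had weak peaks and no H3.1-K27M call. The GBX2 peak at the start (chr2:237076161-237076675) measured 515 bases, with 3.75-fold enrichment and a −log10 q of 2.23. A weaker one lay 12 kb before the start, with a −log10 q of 1.63. The VAX1 peak (chr10:118896848-118897386) was 539 bases wide, with 3.9 and 2.47. These calls lay at percentiles 66.9 and 72.8 of the H3.1-WT list by −log10 p, and absence of a call in H3.1-K27M does not show absence of EZH2.

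The 20 kb limit left out some near neighbours. Just inside it was the H3.1-WT peak of EN1 at 17 kb, and among H3.1-K27M peaks that of GSX2 at 14.2 kb. Just outside, GSX2 had an H3.1-WT peak at 22 kb with a −log10 q of 1.32. VAX1 had overlapping peaks at 23.2 and 23.6 kb (chr10:118921251-118922733 in H3.1-WT, −log10 q 3.16, and chr10:118921573-118922726 in H3.1-K27M, 1.71), before the gene on the - strand. GSX1 had a second wide domain past the gene in both genotypes, at 26.6 and 26.5 kb. It spanned 5603 bases in H3.1-WT (chr13:28393554-28399156, fold enrichment 9.38, −log10 q 18) and 5109 bases in H3.1-K27M (chr13:28393475-28398583, 7.45 and 10.6).

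The lower number of H3.1-K27M peaks extended far beyond the gene starts. Within 1 Mb of the starts, counting each peak once, there were 165 H3.1-WT and 92 H3.1-K27M peaks, a ratio of 0.558. Without the peaks within 20 kb the numbers were 145 and 81, a ratio of 0.559, almost the same as the 0.55 near the starts. The ratio over all autosomal peaks was 0.976. It pools all regions, dense and sparse, and no pooled ratio was computed for regions like these. H3.1-K27M had fewer peaks within 1 Mb of 9 of the 10 genes, against 66.6% of autosomal 2 Mb windows with an H3.1-WT peak. EN2 was the exception, with 38 against 35. VAX1 and EMX2 lie less than 1 Mb apart, so peaks within 1 Mb of both count for each of them in this number of genes.

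Around GBX2 there were 11 H3.1-WT peaks and 0 H3.1-K27M peaks, and the nearest H3.1-K27M peak was 1287 kb from the start. Of 1099 autosomal 2 Mb windows with at least 11 H3.1-WT peaks, 6 had no H3.1-K27M peak (0.546%). This background was added after the GBX2 value was seen. GBX2 lies at its lower limit of 11 and was the most extreme of the 10 genes, so the share does not measure how unusual GBX2 is. OTX2 had 9 and 2 peaks within 1 Mb and VAX1 17 and 6. Genes with an H3.1-K27M peak near their start were mixed. Some had similarly low numbers around them: 10 and 3 at OTX1, 12 and 3 at GSX2, 18 and 6 at EMX2, and 24 and 8 at GSX1. Others had closer numbers: 28 and 20 at EN1, 16 and 11 at EMX1, and 35 and 38 at EN2. The surroundings of VAX1 and EMX2 overlap, so these genes are not separate cases.

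**Figure D5:**
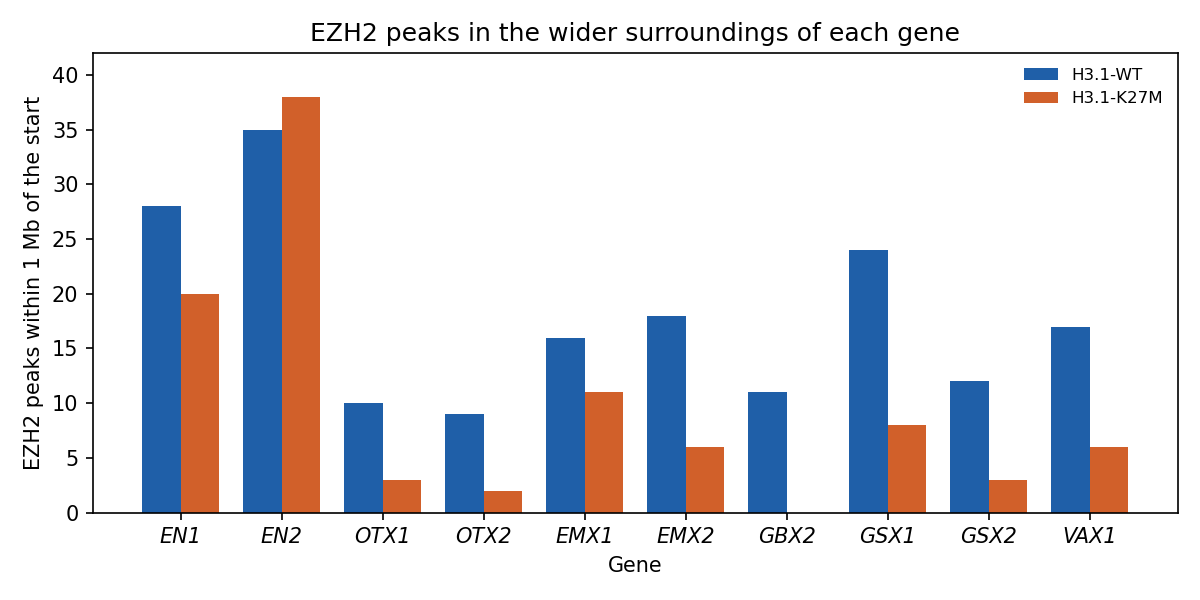
Number of EZH2 peaks within 1 Mb of each start (y axis) in H3.1-WT (blue) and H3.1-K27M (orange). EN2 has more H3.1-K27M peaks, 38 against 35, the other 9 genes have fewer, and GBX2 has 0 against 11. All peaks within 1 Mb of both VAX1 and EMX2 count for both genes.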

How the data were processed

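The authors deposited 1 list of broad EZH2 peaks per genotype, each called per sample against the HRP library of that genotype, per the file headers and peak names. Per the submitters' processing notes, the build was hg19 and the tools included MACS2, Bowtie2 2.3.5.1, Picard, cutadapt and deepTools; their roles and parameters are not given there. Libraries titled H31 were taken as H3.1-K27M from their genotype label. The deposited values are a fold enrichment (a linear ratio), −log10 p, −log10 q and a score that is the −log10 q times 10; the score was not used. The lowest deposited −log10 q was 1.01 for the H3.1-WT peaks and 1 for the H3.1-K27M peaks. No peak ended past an hg19 chromosome end, by the lengths in GenomeInfoDb 1.38.1. No filter for repeats was applied here.

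Genes and starts were given as a list, and overlap, windows and thresholds were computed with scipy 1.17.1, pandas 2.3.3 and numpy 2.4.6 under Python 3.11.15, and drawn with matplotlib 3.10.9. Overlap means at least 1 shared base. The overlap functions were tested on simulated lists. The genes and the gene lists were chosen with earlier results of these data known. All 10 genes are named; peaks are printed by position where they had the highest −log10 p near a gene, were wider than 5 kb, or were set beside such a peak. Peaks printed outside 20 kb, the distances of 1 kb, 2 kb and 1 Mb, the comparison of pairs and the autosomal shares at a reciprocal overlap were chosen after values were seen. Promoter sequences are RefSeq's (GRCh38.p14), matched by symbol; no hg19 annotation was used here, so the list of other brain patterning genes was not analysed here.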

Additional observations from a re-analysis of the deposited data

How the results depend on the processing

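The thresholds moved several values. Of the 94 values recomputed under the alternatives, 76 stayed near the reported value and 18 did not. Near means within 1.5 times the reported count or covered-base ratio, or within the 95% interval of a share or peak-number ratio. No ratio of peak numbers or covered bases rose above 1. Gene counts and overlap shares have no direction that could reverse. At a −log10 q of at least 2, 3 genes had an H3.1-K27M peak, and 28.6% of H3.1-WT and 100% of H3.1-K27M peaks were overlapped. At a minimum of 5 the ratio of peak numbers was 0.2, 4 and 1 genes had a peak in H3.1-WT and H3.1-K27M, and the overlapped shares were 20% and 100%. A minimum leaves fewer peaks to overlap by construction. With strong set to a −log10 q of at least 3, 8 and 3 genes had a strong peak, and at 10, 2 did in H3.1-WT. All H3.1-K27M peaks left, 100%, were overlapped with equal list lengths and within 1, 2, 5 or 10 kb, where the GSX2 peak drops out. A reciprocal overlap of 50% lowered the shares to 15% and 27.3%. Nested peaks of unequal width, and peaks that met only at an edge, then no longer counted. The distances of 1 and 2 kb were chosen after seeing the data. Leaving out each gene in turn gave ratios of 0.474 to 0.611 for peak number and 0.425 to 0.587 for covered bases, the lowest without EMX1 and without GSX1. No paired analysis was possible because there are no replicates to pair. The list of other brain patterning genes needs hg19 gene starts and was not run. Unknown depth limits each comparison of peak number or strength.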

Other observations

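VAX1 and EMX2 lie on the same arm of chromosome 10, and the stretch between their starts held 6 H3.1-WT and 3 H3.1-K27M peaks. Those at either end were shared: the pair before VAX1 and the pair at the EMX2 start. The other 4 H3.1-WT peaks, 686 to 796 bases wide with −log10 q values of 1.23 to 2.88, and the other H3.1-K27M peak (chr10:119221526-119222191, −log10 q 1.49) had no counterpart in the other list.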
